A study of Homo sapiens with 4 samples.

Results

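The expression of 10 genes for ligands, receptors and an inhibitor of the TGF-β and activin pathway was examined among the 61806 genes measured in JJ012 and 143B cells. The genes were chosen by symbol and comprised the TGF-β ligands TGFB1, TGFB2 and TGFB3, the activin subunits INHBA and INHBE, the receptors TGFBR1, TGFBR2, TGFBR3 and ACVR1, and the activin inhibitor FST. JJ012 cells come from a human chondrosarcoma and were given by another laboratory, and 143B cells come from a human osteosarcoma, carry an activated RAS oncogene and were bought from a cell bank. All cells were kept in suspension, and each line gave 1 control library of untreated cells and 1 library of cells exposed to 1 mM melatonin for 72 h. No vehicle is named for the controls. There were no replicate cultures, so each comparison is between single libraries, and a difference cannot be set against the spread between cultures.

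TGF-β and activin ligands are secreted dimers that bring together a type II and a type I receptor kinase on the cell surface. The type I receptor then phosphorylates SMAD2 and SMAD3, which enter the nucleus with SMAD4 and change transcription. TGF-β is stored in the matrix in a latent form, and in bone and cartilage it governs matrix production and the differentiation of osteoblasts and chondrocytes, while in cancer cells it is a known inducer of epithelial-mesenchymal transition.

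Levels are given as FPKM, counts scaled by exonic gene length and library total, which allows genes to be compared with each other. A log2 fold change was taken on FPKM with 1 added to each value, over genes that reached 1 FPKM in either of the libraries compared (called the tested genes), and a gene was counted as changed at 0.58 or more in either direction. This scale understates the change of genes at low level. Beside it stands the log2 ratio of CPM (counts scaled to the library total alone) with an exact Clopper-Pearson 95% interval. Intervals cover counting error only. PCR copies of 1 molecule can be read more than once, so the intervals may be too narrow even for that error. The library totals lay between 15889564 and 19218343 counts. In bulk RNA, fewer cells with a transcript and less of it per cell cannot be told apart. The defining cartilage genes COL2A1 and ACAN were at 0.02 FPKM or below in JJ012, where SOX9 had 15.06 FPKM in the control and 6.16 FPKM after melatonin. The osteoblast factor SP7 was at 0.02 FPKM or below in 143B, where RUNX2 had 4.28 FPKM and 2.75 FPKM. Other osteoblast markers did not move with RUNX2 there, with 1.73 and 3.64 FPKM for DLX5 and 3.62 and 3.61 FPKM for MSX2. The 12 osteoblast markers summed to 98.99 and 72.44 FPKM in JJ012 and to 13.89 and 14.15 FPKM in 143B. Of the JJ012 sums, 79.39 and 64.5 FPKM came from SPP1. Over the 12 chondrocyte markers, the control and melatonin libraries summed to 26.54 and 9.38 FPKM in JJ012, and to 84.3 and 73.16 FPKM in 143B. Of the 143B sums, 62.47 and 53.93 FPKM came from COL9A3. At least 1 FPKM was reached by 4 and 2 of these markers in JJ012 and by 3 in each 143B library. Over 6 haematopoietic markers the JJ012 libraries summed to 12.74 and 4.90 FPKM, with 9.73 and 3.28 FPKM of it from CD3E and at most 0.14 FPKM from PTPRC. The part of these marker differences in the values below was not tested.

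TGFB1 was the most abundant of the 10 genes in every library, and both lines expressed the receptors of its signalling complex. The lines differed in the other ligands and in FST: INHBA was present in 143B and below 1 FPKM in JJ012, while FST and INHBE were present in JJ012 and below 1 FPKM in 143B. Of the 10 genes, 7 reached 1 FPKM in the JJ012 control, 8 in JJ012 after melatonin, and 6 in each 143B library. TGFB3 was the gene that stayed below 1 FPKM in all 4 libraries.

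**Figure D1:**
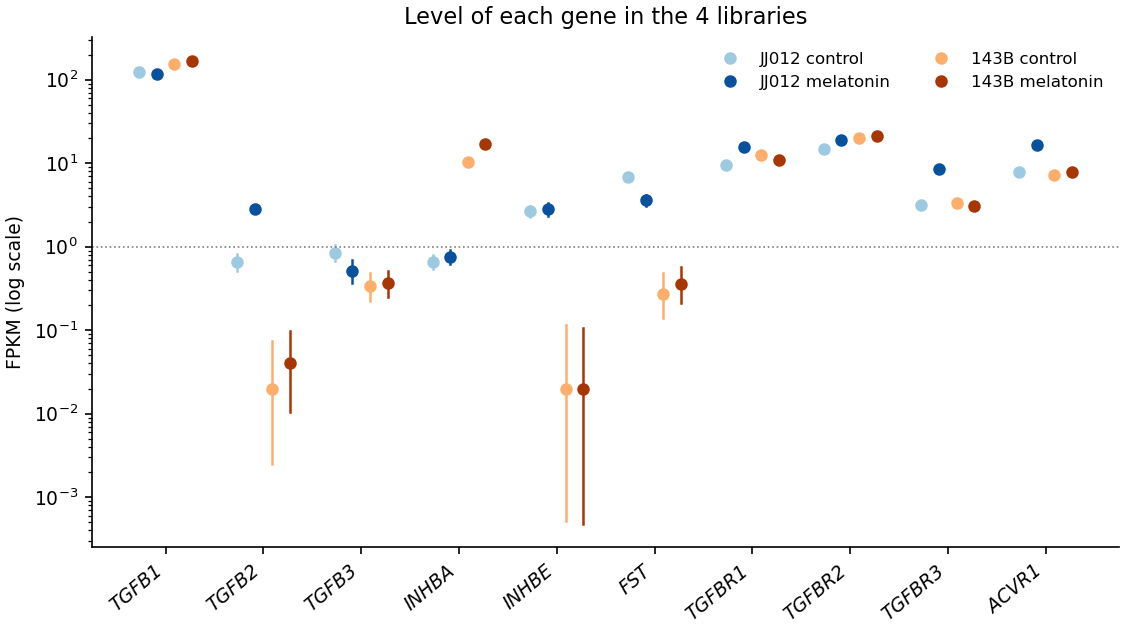
Level of each gene in FPKM on a log axis, with the 4 libraries as colours and bars for the exact Poisson 95% interval of the count; the dotted line marks 1 FPKM. TGFB1 lay between 115.78 and 169.05 FPKM in the 4 libraries, and INHBA, INHBE, FST and TGFB2 lay on different sides of the dotted line in the lines' melatonin libraries.

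Among the TGF-β ligands, TGFB1 (chromosome 19, 41301587 to 41353922, minus strand) had 123.02 FPKM in the JJ012 control, 115.78 FPKM in JJ012 after melatonin, 154.58 FPKM in the 143B control and 169.05 FPKM in 143B after melatonin. It ranked above 98.4% of the genes with at least 1 FPKM in the JJ012 control and above 98.8% in 143B after melatonin. Of the summed FPKM of TGFB1, TGFB2 and TGFB3, TGFB1 made up 98.8% in the JJ012 control, 97.2% in JJ012 after melatonin and 99.8% in each 143B library. TGFB2, whose dimer binds the type II receptor weakly without betaglycan, had 0.65 FPKM (76 counts) in the JJ012 control and 2.83 FPKM (276 counts) after melatonin, against 0.02 FPKM (2 counts) and 0.04 FPKM (4 counts) in 143B. Its share of the summed ligand FPKM in JJ012 was 0.522% in the control and 2.38% after melatonin. TGFB3 had 85 and 43 counts in JJ012, which is 0.85 and 0.51 FPKM, and 28 and 33 counts in 143B, which is 0.34 and 0.37 FPKM.

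INHBA (chromosome 7, 41667168 to 41705834, minus strand) encodes the βA subunit of activin A. It had 105 and 101 counts in the JJ012 control and melatonin libraries, which is 0.66 and 0.76 FPKM. In 143B it had 1374 and 2383 counts, which is 10.44 and 16.76 FPKM, so that both 143B libraries lay above both JJ012 libraries. INHBE, which encodes the subunit of activin E and is best known from liver, had the opposite order, with 155 and 138 counts in JJ012 (2.65 and 2.81 FPKM) and 1 count in each 143B library. FST (chromosome 5, 53480626 to 53487134, plus strand) encodes follistatin, which binds activin and keeps it from its receptors. It had 364 and 159 counts in JJ012 (6.88 and 3.58 FPKM) and 12 and 17 counts in 143B (0.27 and 0.36 FPKM).

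Set against each other within a library, follistatin RNA exceeded INHBA RNA in JJ012 and INHBA exceeded it in 143B. The FPKM of FST was 10.4 times that of INHBA in the JJ012 control (95% counting interval 8.38 to 13.1) and 4.74 times after melatonin (3.67 to 6.14). In 143B the FPKM of INHBA was 38.0 times that of FST in the control (21.7 to 73.8) and 46.6 times after melatonin (29.02 to 80.1). The intervals of the control and melatonin libraries overlapped in 143B and did not in JJ012. FST has 2752 exonic bases and INHBA 8284, and change in JJ012 moved with exonic length, as described below. The part of length in the change of this ratio was not tested.

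The promoters of TGFB2, INHBA and FST, whose levels set the libraries apart and which have a single start in the RefSeq table, are shown as the 250 bases before that start (GRCh38.p14), on the strand of the gene. Capitals mark matches to the motifs searched, and the windows are TGFB2 at chr1:218345086-218345335 on the plus strand, INHBA at chr7:41703091-41703340 on the minus strand and FST at chr5:53480379-53480628 on the plus strand.
TGFB2: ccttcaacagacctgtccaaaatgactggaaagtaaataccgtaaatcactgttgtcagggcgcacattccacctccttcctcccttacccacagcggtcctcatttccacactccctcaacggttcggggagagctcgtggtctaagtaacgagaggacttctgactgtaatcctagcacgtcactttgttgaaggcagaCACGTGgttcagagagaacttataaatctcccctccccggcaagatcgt
INHBA: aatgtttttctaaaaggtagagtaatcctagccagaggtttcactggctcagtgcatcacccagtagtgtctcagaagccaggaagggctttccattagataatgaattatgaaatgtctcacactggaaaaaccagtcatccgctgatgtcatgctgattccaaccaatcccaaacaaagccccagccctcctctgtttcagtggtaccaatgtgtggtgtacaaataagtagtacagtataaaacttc
FST: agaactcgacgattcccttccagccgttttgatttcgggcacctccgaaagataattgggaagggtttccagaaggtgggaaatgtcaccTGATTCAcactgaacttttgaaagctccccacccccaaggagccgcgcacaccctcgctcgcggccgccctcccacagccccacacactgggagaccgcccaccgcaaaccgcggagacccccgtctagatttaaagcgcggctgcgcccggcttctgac
The window of TGFB2 held CACGTG, the E-box, from base -49 before the start, and that of FST held TGANTCA, the AP-1 motif, from base -160. CACGTG was also in 1 of 2 windows of TGFB3, and TGANTCA in 1 of 2 windows of TGFBR2 and 1 of 3 windows of ACVR1. The RefSeq start of INHBA lies inside the gene as the authors' table bounds it. The search covered both strands of the whole window of 300 bases, which runs 50 bases past the start, and also included TGATGNAA, the composite of ATF4 and C/EBP, and GTCTAGAC, the SMAD palindrome. Neither was found in the 20 windows of the 9 genes that the table holds. Over all 35116 windows of the table, CACGTG was in 7.26%, TGANTCA in 7.71%, TGATGNAA in 3.62% and GTCTAGAC in 0.202%. The GC content of the 250 bases was 50.4% for TGFB2, 42.8% for INHBA and 60.0% for FST, with quartiles of 46.4% and 68.0% over all windows. A match describes the letters and not a bound site.

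All receptors passed 1 FPKM in every library. TGFBR2, the type II receptor that binds TGF-β, had 14.97 and 18.82 FPKM in JJ012 and 20.23 and 20.94 FPKM in 143B. TGFBR1, the type I receptor ALK5 that phosphorylates SMAD2 and SMAD3, had 9.59 and 15.51 FPKM in JJ012 and 12.50 and 10.83 FPKM in 143B. TGFBR2 exceeded TGFBR1 in each library, from 1.21-fold in JJ012 after melatonin (1.14 to 1.29) to 1.93-fold in 143B after melatonin (1.81 to 2.06). TGFBR3, the co-receptor betaglycan, had 3.14 and 8.49 FPKM in JJ012 (518 and 1175 counts) and 3.38 and 3.11 FPKM in 143B (460 and 458 counts). ACVR1, the type I receptor ALK2 that serves BMPs and also binds activin complexes, had 7.92 and 16.72 FPKM in JJ012 (1498 and 2657 counts) and 7.28 and 7.84 FPKM in 143B (1138 and 1324 counts). For TGFBR3 and ACVR1, the JJ012 melatonin library stood above the other 3, which lay close to each other.

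The order of the levels, by exact Poisson intervals, was TGFB1, TGFBR2 and TGFBR1 from the top in both controls. In the JJ012 control, neighbours whose intervals overlapped were ACVR1 with FST, TGFBR3 with INHBE, and TGFB3, INHBA and TGFB2 at the bottom. After melatonin in JJ012, ACVR1 stood above TGFBR1 with intervals that overlapped at their ends, and the ratio of their FPKM was 1.08 (1.02 to 1.14). TGFBR3 stood above FST there with intervals that did not overlap. In 143B, INHBA had rank 4 in the control and rank 3 after melatonin, and both ranks were separated from their neighbours by more than counting error.

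To ask what melatonin changed, the libraries of each line were compared. In JJ012, TGFB2, TGFBR3, ACVR1 and TGFBR1 were higher after melatonin and FST was lower. Of the 8 genes tested there, 4 were counted as higher and 1 as lower, where 38.2% of the 15794 genes tested in JJ012 were counted as changed, 19.6% as higher and 18.6% as lower. By CPM, 5 of the 8 had an interval above 0 and 2 below, where these shares were 36.9% and 35.2% over all genes tested. The median log2 fold change of the 8 genes was 0.48, against 0.01 over all genes tested. Less the trend with exonic length described below, the median of the 8 was 0.32. Of the genes counted as changed in JJ012, 51.4% were higher, and 62.3% were with TPM, which moved the median gene to 0.21. In 143B, INHBA was the gene counted as higher, and none of the other 5 genes tested reached 0.58. This is 1 of 6, where 12.7% of 14135 genes were counted as changed, 6.09% as higher and 6.65% as lower. By CPM, 3 of the 6 had an interval that excluded 0, 2 above and 1 below, where this was so for 52.0% of genes, 28.4% above and 23.5% below. The median over the 6 was 0.07, against 0.03 over all genes tested. These shares are descriptions of the libraries, since the genes were chosen with earlier results of these data known.

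**Figure D2:**
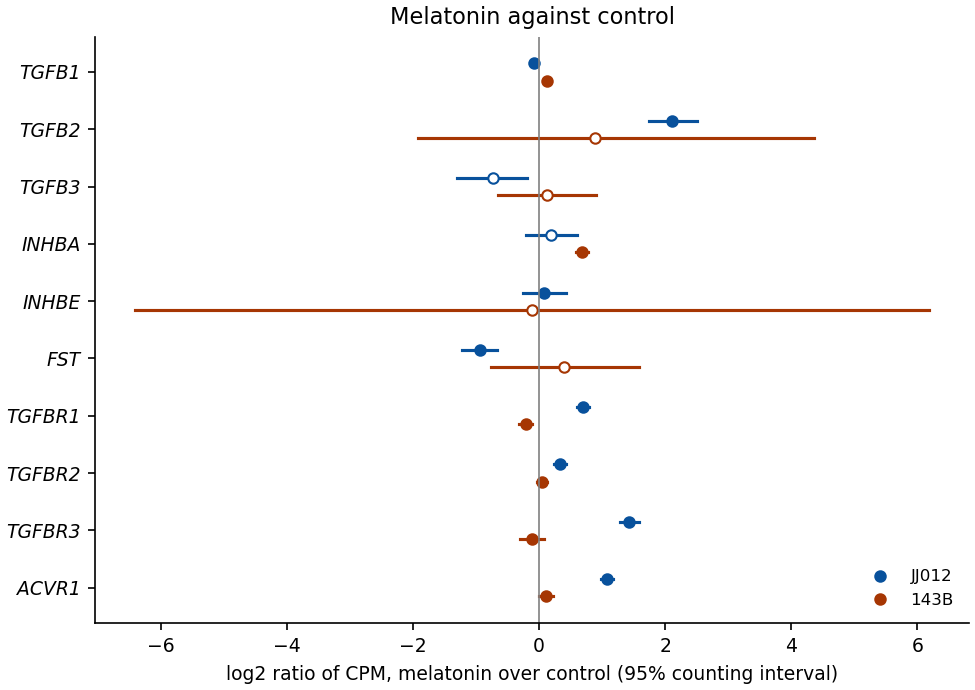
Log2 ratio of CPM of melatonin over control for each gene in JJ012 (blue) and 143B (brown), with bars for the 95% counting interval; open points are genes below 1 FPKM in both libraries of the line. TGFB2, TGFBR3, ACVR1 and TGFBR1 lie above 0 in JJ012 and FST below, while in 143B INHBA lies at 0.68 and the other genes with filled points within 0.21 of 0.

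In JJ012, the log2 fold change of TGFB2 was 1.21. By CPM it was 4.32-fold higher after melatonin, with a log2 ratio of 2.11 (1.74 to 2.50), the largest ratio of the 10 genes in that line. It passed the filter through its melatonin library alone. In 143B its 2 and 4 counts gave a log2 ratio of 0.89 with an interval of -1.91 to 4.36, so a change was not detectable at this depth.

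TGFBR3 was 2.70-fold higher by CPM in JJ012 (log2 ratio 1.43, 1.28 to 1.59) and ACVR1 2.11-fold higher (1.08, 0.99 to 1.17). In 143B the log2 ratio was -0.12 (-0.31 to 0.07) for TGFBR3 and 0.11 (-0.01 to 0.22) for ACVR1, and both intervals held 0. TGFBR1 was 1.62-fold higher in JJ012 (0.69, 0.60 to 0.79), while in 143B its log2 ratio was -0.21 (-0.31 to -0.10), so that the intervals of TGFBR1 lay on opposite sides of 0 in the lines. Of the 11822 genes tested in both lines, 21.5% had intervals on opposite sides. TGFBR2 had 0.33 (0.24 to 0.42) in JJ012 and 0.05 (-0.03 to 0.13) in 143B, below the threshold in both lines. The summed FPKM of the 4 receptors was 35.62 in the JJ012 control and 59.54 after melatonin, against 43.39 and 42.72 in 143B. Betaglycan RNA was 0.210 times that of TGFBR2 in the JJ012 control (0.190 to 0.231) and 0.451 times after melatonin (0.419 to 0.485).

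FST was 1.92-fold lower by CPM after melatonin in JJ012, with a log2 ratio of -0.94 (-1.22 to -0.67) and a log2 fold change of -0.78. In 143B its log2 ratio from 12 and 17 counts was 0.39 (-0.76 to 1.59). INHBA was 1.61-fold higher after melatonin in 143B, with a log2 ratio of 0.68 (0.59 to 0.78) and a log2 fold change of 0.63, and in JJ012 its log2 ratio from 105 and 101 counts was 0.20 (-0.21 to 0.60). INHBE had 0.08 (-0.26 to 0.42) in JJ012. TGFB3, which was not tested, had a log2 ratio of -0.73 (-1.30 to -0.19) in JJ012 and 0.13 (-0.65 to 0.91) in 143B.

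TGFB1 stayed below the threshold in both lines. Its log2 ratio was -0.087 (-0.14 to -0.04) in JJ012 and 0.13 (0.09 to 0.17) in 143B. With counts this high the intervals excluded 0, but the log2 fold change in JJ012 was between -0.11 and 0.19 over the scalings tried and had no fixed sign. A read counted for TGFB1 can overlap HNRNPUL1 on the other strand, which shares 6.64% of the exonic bases of TGFB1 in GENCODE 29. TGFB2 shares 26.6% of its exonic bases with TGFB2-OT1 on its own strand, a gene with 0 counts in all 4 libraries, and TGFB3 shares 3.32% with TGFB3-AS1. The other 7 genes share none in GENCODE 29. The bounds in the authors' table also place a gene without a symbol over TGFB1 on its strand. It had 206 and 152 counts in JJ012 and 85 and 144 in 143B. Another lies over INHBE on the other strand, with 18 and 12 counts in JJ012 and 0 and 3 in 143B. Whether these share exonic bases was not examined. Neither the setting for strand in the counting nor the handling of reads in shared bases is given in the sources used here. The 0 counts of TGFB2-OT1 therefore do not show whether it is transcribed or whether TGFB2 lost reads.

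The difference between the lines in the melatonin ratio was computed from all 4 libraries, as 143B minus JJ012 on the log2 scale with a counting interval. It was -1.55 for TGFBR3 (-1.79 to -1.31), -0.97 for ACVR1 (-1.12 to -0.82) and -0.90 for TGFBR1 (-1.04 to -0.76). For TGFBR2 it was -0.28 (-0.40 to -0.16) and for TGFB1 0.22 (0.15 to 0.28). Of the genes tested in both lines, 69.2% had an interval that excluded 0, so an interval without 0 was the common case. None of TGFB1, TGFBR1, TGFBR2, TGFBR3 and ACVR1, the genes tested in both lines, reached 0.58 in both, where 2.07% of all genes did so in opposite directions and 2.50% in the same direction. For FST and INHBA, each tested in a single line, the difference was 1.31 (0.23 to 2.40) and 0.49 (0.08 to 0.89). For TGFB2, the interval of -3.63 to 0.89 held 0, because of the 2 and 4 counts of 143B.

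In JJ012 the change after melatonin moved with the exonic length of genes, with a Spearman correlation of 0.24 across the 15794 genes tested, and in 143B it was -0.01 across 14135 genes. Genes are not independent replicates. The 4 genes counted as higher in JJ012 have exonic lengths of 6050 (TGFB2), 7990 (TGFBR1), 8577 (TGFBR3) and 9842 bases (ACVR1), and FST has 2752. Less the running median over length, the log2 fold change in JJ012 was 1.08 for TGFB2, 0.95 for TGFBR3 and 0.67 for ACVR1, all still past 0.58, while TGFBR1 had 0.41 and FST -0.56 and were no longer counted. INHBA in 143B had 0.62. The part of length in these differences was not tested further.

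**Figure D3:**
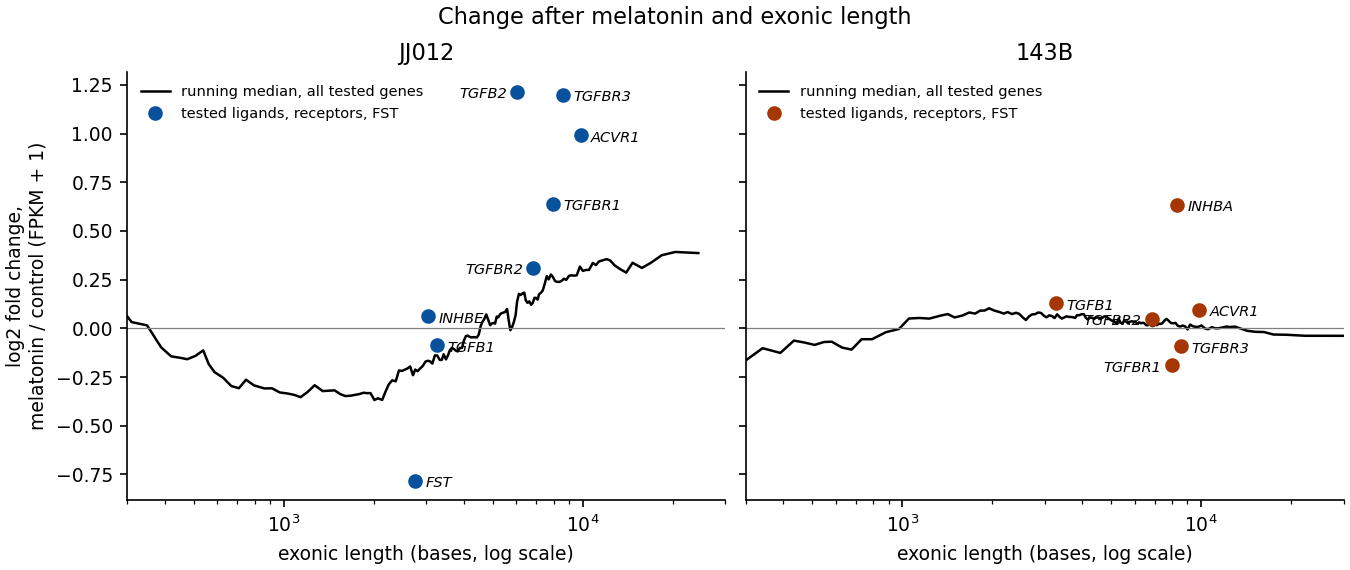
Log2 fold change after melatonin against exonic length in bases on a log axis, for JJ012 (left) and 143B (right); the line is the running median of all tested genes and points are the tested genes of the pathway. In JJ012 the line falls over the shortest genes and then rises with length, and TGFB2, TGFBR3 and ACVR1 lie at least 0.67 above it, while in 143B the line stays near 0 and INHBA lies 0.62 above it.

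The lines were also compared with each other, first in the controls and then after melatonin, which uses other libraries. INHBA was higher in 143B in both comparisons, and FST and INHBE were lower. In the controls, 1 of the 8 genes tested was counted as higher in 143B and 2 as lower, where 68.7% of 16929 genes were counted as changed, 27.4% as higher and 41.3% as lower. By CPM, 4 of the 8 had an interval above 0 and 3 below, against 35.1% and 50.8% of all tested genes, or 86.0% in all. After melatonin, 1 of 9 was higher and 5 were lower, where 62.0% of 16239 genes were counted as changed, 23.2% as higher and 38.8% as lower. By CPM, 3 of the 9 had an interval above 0 and 6 below, against 30.9% and 51.1% of all tested genes, or 82.0% in all. In both comparisons INHBA passed the filter through 143B alone, and FST and INHBE through JJ012 alone. TGFB2 did so through JJ012 after melatonin. A gene that passes in a single library can only be higher there, so the filter fixed the direction of these genes. The median log2 fold change over all tested genes was -0.29 in the controls and -0.28 after melatonin, so values in 143B are set against a median gene below 0. Of the genes counted as changed, 39.9% were higher in 143B in the controls and 37.4% after melatonin, and with TMM scaling 52.3% and 49.2%. Cell line and library cannot be told apart.

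INHBA was 15.8-fold higher by CPM in the 143B control than in the JJ012 control (log2 ratio 3.98, 3.70 to 4.29) and 22.2-fold higher after melatonin (4.47, 4.18 to 4.77). FST was 25.1-fold lower in the 143B control (-4.65, -5.61 to -3.83) and 9.94-fold lower after melatonin (-3.31, -4.13 to -2.59). INHBE, with 1 count in each 143B library, had log2 ratios of -7.00 (-12.3 to -4.50) and -7.20 (-12.5 to -4.69). TGFB2 had -4.97 (-8.05 to -3.07) in the controls, where it was below 1 FPKM in both libraries, and -6.20 (-8.08 to -4.82) after melatonin.

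TGFBR3 and ACVR1 stood closer together between the lines in the controls than after melatonin. In the controls the log2 fold change of 143B against JJ012 was 0.41 for TGFBR2, 0.35 for TGFBR1, 0.08 for TGFBR3 and -0.11 for ACVR1. Relative to the median gene these became 0.70, 0.64, 0.37 and 0.18, and TGFB1 went from 0.33 to 0.61, so TGFBR2, TGFBR1 and TGFB1 passed 0.58 on that scale and the sign of ACVR1 turned. After melatonin, TGFBR3 was lower in 143B by CPM with a log2 ratio of -1.45 (-1.61 to -1.29) and ACVR1 with -1.09 (-1.19 to -0.998), and their log2 fold changes relative to the median gene were -0.92 and -0.72. TGFBR1 had a log2 fold change of -0.48 and TGFBR2 of 0.15 there.

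**Figure D4:**
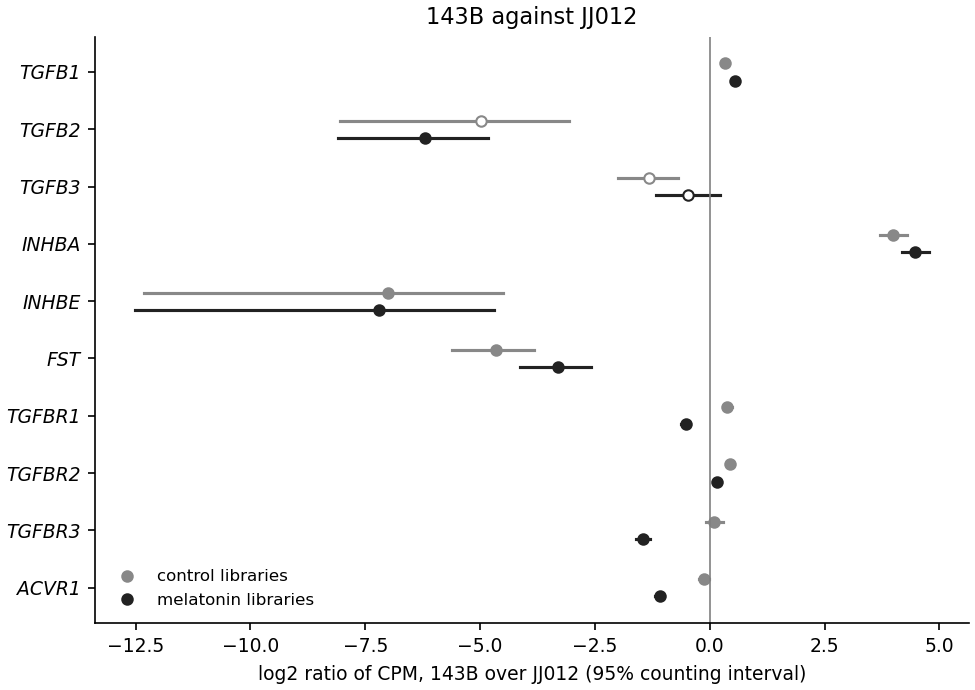
Log2 ratio of CPM of 143B over JJ012 for each gene, in the control libraries (grey) and the melatonin libraries (black), with bars for the 95% counting interval; open points are genes below 1 FPKM in both libraries compared. INHBA lies near 4 and INHBE, FST and TGFB2 lie below -3 in both, while TGFBR3 and ACVR1 lie near 0 in the controls and below -1 after melatonin.

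INHBA had the widest range of the 10 genes over the 4 libraries, 3.42 on the scale of log2(FPKM + 1). The 3 genes with the pattern most like it, by Euclidean distance of centred log2 values over the 4 libraries among 9673 genes with at least 5 FPKM in 1 library, were PPP1R14C (0.10), KIAA0040 (0.13) and KCNC4 (0.16). KIAA0040, as an example, had 0 FPKM in both JJ012 libraries, 5.40 FPKM in the 143B control and 8.46 FPKM after melatonin. With 4 libraries, such likeness is a description of levels.

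The other genes of the pathway were taken from 6 lists with 74 genes, of which 4 stand in 2 lists and 12 were at or under 1 FPKM in every library. In JJ012, 8 of the 59 tested were counted as higher after melatonin and 19 as lower, with a median log2 fold change of -0.10. Of those lower, INHA, LRRC32, PMEPA1 and TGFBI passed the filter through the control library alone, so they could only be lower. LRRC32 is named after its values were seen. In 143B, 1 of 56 was higher and 2 were lower, with a median of 0.01. The shares over all genes are those given above, 38.2% in JJ012 and 12.7% in 143B. By direction, 19.6% were higher and 18.6% lower in JJ012, and 6.09% and 6.65% in 143B.

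**Figure D5:**
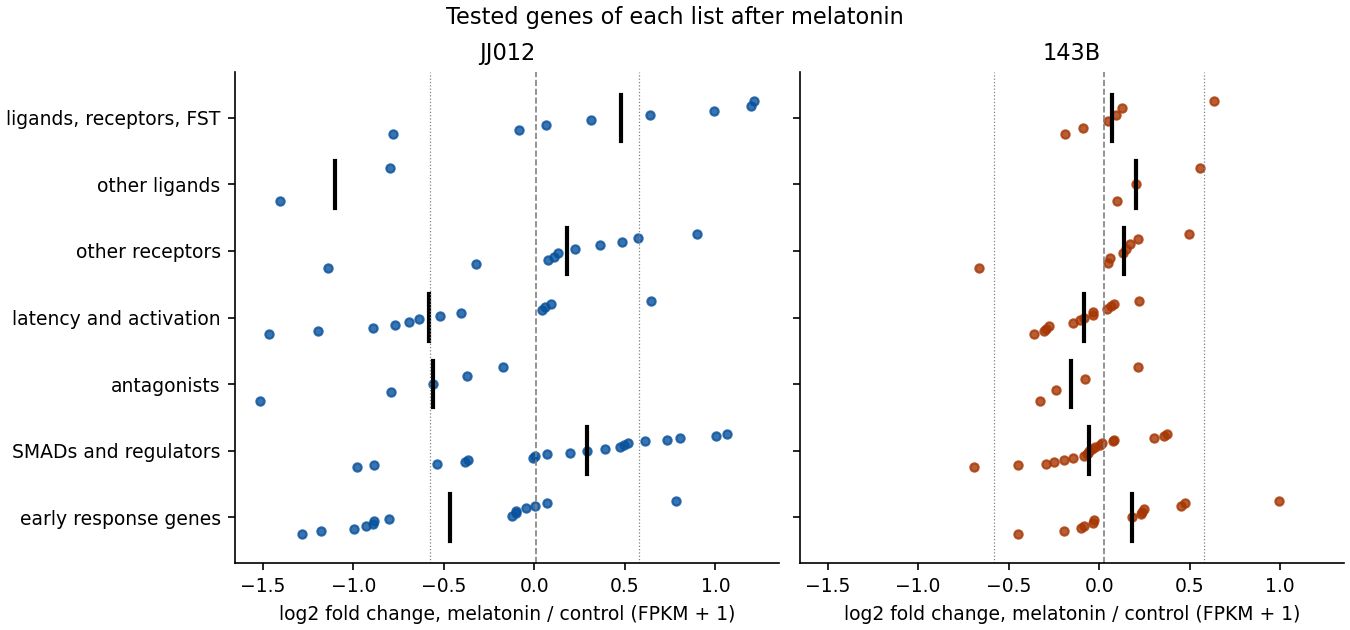
Log2 fold change after melatonin of the tested genes of each list, with the 10 genes as the top line, in JJ012 (left) and 143B (right); each point is a gene, black bars are list medians, the dashed line is the median of all tested genes and dotted lines are at 0.58 in each direction. In JJ012 the latency list has a median of -0.58 and the early response genes of -0.47, while in 143B all medians lie between -0.16 and 0.20.

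Among the other ligands, 2 of 8 genes were tested in JJ012 and both were lower. They were INHA, the inhibin α subunit that turns βA chains into inhibin, from 115 to 20 counts, and GDF11, from 546 to 203 counts, both named after their values were seen. The direction of INHA was fixed by the filter, which it passed through the control alone. In 143B the log2 ratio of GDF11 was 0.84 (0.60 to 1.09), below the threshold on the FPKM scale. Among the other receptors, all 10 were tested in JJ012, with 1 higher and 1 lower. ACVR1B, the type I receptor of activin, had 3.36 and 7.12 FPKM in JJ012, 2.12-fold higher by CPM, and 7.53 and 8.61 FPKM in 143B. ACVRL1, a receptor known from endothelium, had 5.37 and 1.89 FPKM in JJ012, 2.85-fold lower, and 0 and 4 counts in 143B. ACVR1C, the type I receptor ALK7 known from fat, was lower in 143B, from 764 to 464 counts (log2 fold change -0.66), where its JJ012 levels were 0.78 and 1.29 FPKM.

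In the list for latency and activation of TGF-β, 6 of the 12 genes tested in JJ012 were lower and 1 was higher, with a median of -0.58. Over all genes tested in JJ012, 18.6% were lower and 19.6% higher. The lower genes include LRRC32, which passed the filter through the control alone. FURIN, the protease that cleaves the TGF-β precursor, had 55.88 FPKM in the JJ012 control and 23.82 FPKM after melatonin, 2.35-fold lower by CPM, and 26.52 and 27.31 FPKM in 143B. EMILIN1, a matrix protein that restrains processing of the TGF-β precursor, had 37.92 and 13.07 FPKM in JJ012 and at most 3 counts in 143B. LTBP1 and LTBP3, which tether latent TGF-β to the matrix, were 1.74-fold and 1.97-fold lower in JJ012. The integrin subunits ITGB3 and ITGB5, both named after their values were seen, moved in opposite directions in JJ012. ITGB3 was higher, with 272 and 419 counts. ITGB5 was lower, with 4963 and 2641 counts (39.64 and 25.11 FPKM), a log2 ratio of -0.66 (-0.73 to -0.59). The integrin subunits ITGAV and ITGB1 were tested there and not counted as changed. In 143B, none of the 13 genes tested in this list was counted, and the log2 ratio of LTBP1 was 0.08 (-0.01 to 0.18).

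Of the antagonists, 2 of the 5 tested in JJ012 were lower, FSTL3 and FSTL1, where 18.6% of all genes tested were lower. FSTL3, a follistatin-like protein that also binds activin, had 61.23 and 34.90 FPKM in JJ012, 1.75-fold lower, and 17.33 and 14.54 FPKM in 143B. It was above FST in level in both lines, where FST had 6.88 and 3.58 FPKM in JJ012 and 0.27 and 0.36 FPKM in 143B. FSTL1 had 20.95 and 6.67 FPKM in JJ012, 3.14-fold lower, and 41.34 and 48.09 FPKM in 143B.

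All 19 genes of the list of SMADs and intracellular regulators were tested in both lines. In JJ012, 5 were higher and 2 lower, with a median of 0.29, or 0.11 less the trend with length. SMURF1, a ubiquitin ligase for SMADs and receptors, had 9.23 and 20.42 FPKM in JJ012, and SKI, a co-repressor bound to SMADs, had 12.46 and 25.94 FPKM. The other 3 that were higher, named after their values were seen, were SMAD3 (7.15 and 12.53 FPKM), TGIF1 (7.23 and 13.39 FPKM) and PPM1A (4.67 and 7.67 FPKM). FKBP1A, which holds type I receptors inactive, was 2.02-fold lower, with 45.25 and 22.41 FPKM. PMEPA1, a target of TGF-β that feeds back on it, had 2.16 and 0.71 FPKM in JJ012 and 28.41 and 26.78 FPKM in 143B. In 143B, SMAD9, likewise named after its values were seen, was lower, with 4.50 and 2.40 FPKM.

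Of the early response genes, 7 of the 14 tested in JJ012 were lower after melatonin and 1 was higher. Among all genes tested there, 18.6% were lower and 19.6% higher. The lower genes include TGFBI and PMEPA1, which passed the filter through the control alone. The median of the list in JJ012 was -0.47, or -0.50 less the trend with length. In 143B, the 13 tested had a median of 0.18. TGFBI, a matrix protein named for its induction by TGF-β, had 220 and 3 counts in JJ012, a log2 ratio of -5.94 (-8.23 to -4.38), and 4334 and 6552 counts in 143B, a log2 ratio of 0.48. IL11 had 165 and 48 counts in JJ012 and 711 and 1069 counts in 143B. ID3, an early target of BMP and TGF-β, had 30.09 and 12.75 FPKM in JJ012 and 12.96 and 12.70 FPKM in 143B. CCN2, the gene of this list that was higher in JJ012, had 82 and 145 counts and was named after its values were seen.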

How the data were processed

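Poly(A) RNA of 4 libraries of JJ012 and 143B cells was sequenced as paired reads of 150 bases. Conditions came from the sample titles. Table columns ending in T were taken for the melatonin libraries, which the table does not spell out. The deposited table gives unnormalized counts per gene, and FPKM that the authors derived from them by exonic length and library total (all 247224 values within 0.006 of that calculation). The submitters' processing notes name cutadapt 1.9.1, HISAT2 2.2.1, HTSeq 0.6.1, DESeq2 and hg38, without roles. Gene bounds equal GENCODE 29 for 4 of the 10 genes and differ by up to 899 bases for the others.

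With 1 library per condition no test was run, and edgeR gave TMM factors alone. Log2 fold changes used FPKM with a pseudocount of 1, a filter of 1 FPKM and the study's fold threshold, 0.58, without its FDR. CPM ratios carry Clopper-Pearson 95% intervals, and line differences an interval from counts with 0.5 added. A floor of 3 counts was 0.156 to 0.189 CPM. The running median over length used 501 genes. Genes, lists and settings were chosen with earlier results of these data known. Up to 4 genes per list were named, with at least 5 FPKM in 1 library, a change of at least 0.58 in 1 line and a CPM interval there without 0. Of these, 1 is not reported here and stays in the counts of its list. Ligand protein identity was planned and not computed. Procedures were tested on simulated data. Python 3.11.15, numpy 2.4.6, scipy 1.17.1, pandas 2.3.3, matplotlib 3.10.9, R 4.3.3 and edgeR 4.0.16 were used. Alternatives were another pseudocount, filter, threshold and scaling, centring on the median gene, and removal of the trend with length.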

Additional observations from a re-analysis of the deposited data

Results flagged for a closer look

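Among the 10 genes and the 16 others described by rule, 6 had counting intervals of the melatonin ratio on opposite sides of 0 in the lines. Over the 11822 genes tested in both lines this share was 21.5%, which is not a like measure. The 16 others were chosen for a change in at least 1 line. TGFB2, TGFB3, INHBA, INHBE, FST, ACVRL1 and EMILIN1 were not tested in both lines. There was 1 library per condition, so the difference between the lines was set against counting error and not tested against the spread between cultures. The log2 CPM ratio of TGFBR1 was 0.69 in JJ012 and -0.21 in 143B, and that of TGFB1 was -0.087 and 0.13. Among the other pathway genes, ACVR1C had 0.74 in JJ012 and -0.83 in 143B. FSTL1 had -1.65 and 0.22, and IL11 had -1.53 and 0.48. TGFBI had -5.94, from 220 and 3 counts, and 0.48. GDF11, with -1.18 and 0.84, and ITGB3, with 0.87 and -0.15, also had intervals on opposite sides and were named after their values were seen.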

How the results depend on the processing

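No paired analysis was possible because each condition had 1 library and the labels carry no replicate numbers, and no library could be left out. Of the 5 pathway genes counted as changed in JJ012, 3 were counted less the running median over length and 2 at a threshold of 1, where 2327 of all tested genes passed. In 143B the threshold of 1 left 0 of the 10 genes, 0 of the other pathway genes and 629 genes in all. At that threshold 9 other pathway genes passed in JJ012, and 6500 genes between the melatonin libraries of the lines. The other pathway genes counted in 143B, 3 as reported, were 6 with a pseudocount of 0.1 FPKM, 7 with TPM and 7 with CPM, and with that pseudocount 2948 genes were counted in 143B in all. A filter of 5 FPKM tested fewer genes and left 3352 in JJ012, 547 in 143B, 6152 between the controls and 5479 between the melatonin libraries, with 3 of the 10 genes in the last. TPM values are about 4 times the FPKM, so more genes pass the filter and the pseudocount weighs less, and 12264, 6037, 18462 and 16813 genes were counted in these comparisons. Between the controls, 3 of the 10 genes were counted as reported, 8 with TPM, 6 with TMM, with size factors and with centring, and 5 with CPM. The log2 CPM ratio of ACVR1 between the controls, -0.12, became 0.23 with TMM. Where neither the scaling nor the number of genes tested shows it, the cause was not tested. Depth limits TGFB2, INHBE and FST in 143B, at 17 counts or fewer.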
